A study of Mus musculus with 18 samples.

Results

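The comparison described here was that of control mouse alveolar type II cells at 24 h with control cells at 0 h. It used the 6 arrays whose titles mark them as controls at those times, 3 at each time, out of 18 arrays in the series. The cells were isolated from mice 7 to 8 weeks old that carried floxed Cebpa alleles (flx/flx) and lacked either the rtTA or the Cre gene, so that Cebpa, which encodes C/EBPα, a transcription factor, was intact. The labels do not say which control lacked which transgene. The other genotype of the series was Cebpa delta/delta, in which Cebpa had been conditionally deleted from Clara cells and type II cells. The series design describes the times as early hyperoxia, a high concentration of inspired oxygen, while the description of every sample states air; the comparison is therefore named by its times. The labels do not say that the arrays came from separate animals, so p-values measure the spread between these arrays, which may be technical.

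Type II cells line the alveoli between the flat type I cells. They make surfactant, a mixture of lipids and surfactant proteins stored in lamellar bodies, clear fluid by sodium transport and replace type I cells after injury. High oxygen is known to produce reactive oxygen species in the lung; cells answer oxidants through NRF2, which drives glutathione and detoxification genes, shortage of amino acids through the integrated stress response and its factor ATF4, and misfolded protein in the endoplasmic reticulum (ER) through the unfolded protein response.

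Genes of the labelled cell type were at a high level. The mean of 24 type II genes was 12.61 to 12.68 at 0 h and 12.28 to 12.39 at 24 h, against a median of all genes of 6.99. Several lists of other lung cells also lay above that median, with airway secretory genes at 9.92 to 10.56 and 10.05 to 10.83. Sftpc, the surfactant protein C gene that defines type II cells, measured 14.28, 14.28 and 14.24 in the 3 arrays at 0 h and 14.17 in each of the 3 at 24 h. All levels are log2 values after quantile normalization, given for replicates 1, 2 and 3 in that order, and differences are 24 h minus 0 h. Arrays of the same time correlated at 0.993 to 0.995 over all genes and arrays of different times at 0.971 to 0.975. The deposited values at 0 h were spread more widely: the interquartile range over genes was 2.97 to 3.04 in the controls at 0 h, 2.44 to 2.52 at 24 h and 2.13 to 2.38 at 2 h. In the deposited values the 20% of genes with the highest levels had a median difference of -0.43 and the 20% with the lowest levels one of 0.39. After quantile normalization of the 6 arrays together these medians were -0.03 and 0.04. Since the range of the arrays changed with time, it cannot be told apart from time. Each list's count for 24 h against 0 h is given with its count in the deposited values. List counts with the 2 h arrays and for the interaction with genotype are given after normalization only.

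**Figure D1:**
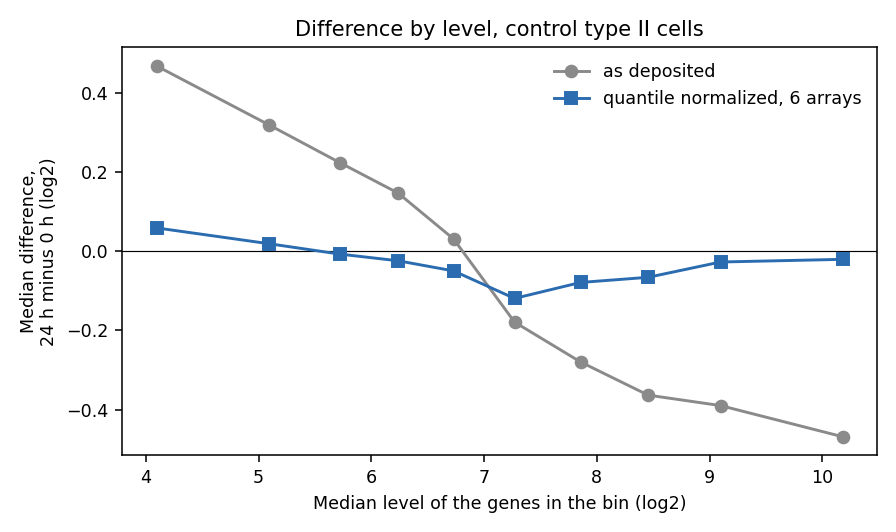
Median log2 difference, 24 h minus 0 h, in 10 bins of genes ordered by level, plotted against the median level of the bin, for the deposited values (grey circles) and after quantile normalization of the 6 control arrays (blue squares). The deposited medians run from 0.47 in the lowest bin to -0.47 in the highest, and the normalized ones stay between -0.12 and 0.06.

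Many genes differed between the times. Of 19938 genes tested, 9680 (48.6%) passed an adjusted p of 0.05 in limma, with 4299 (21.6%) higher and 5381 (27%) lower at 24 h. Most differences were small: 163 genes were at least 2-fold higher and 266 at least 2-fold lower, and the central 90% of all genes lay between -0.69 and 0.61 on the log2 scale, with a median of -0.03. In 11736 genes (58.9%) the 3 arrays of one time all lay above those of the other, at 24 h in 26.4% and at 0 h in 32.5%. In the deposited values 64.7% of genes were called, 27.3% higher and 37.4% lower. With the deposited arrays centred on their medians instead, the median of all genes was -0.17 and 31.5% of calls were higher, against 44.4% here. These shares are the background for every count below. A list's median is the median difference of its measured members, and the members of a list were called in the same test over all genes.

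Genes of the integrated stress response, which reduces general translation and raises amino acid supply, were mainly higher at 24 h after quantile normalization, but as often lower as higher in the deposited values. Of 21 measured, 13 rose, 1 fell and 7 did not pass the test; the list's median was 0.39, although with the arrays centred on their medians it was -0.06 and in the deposited values 0.04, with 6 higher and 6 lower. Asns, asparagine synthetase, measured 9.66, 9.65 and 9.62 at 0 h and 11.00, 10.83 and 11.20 at 24 h. That is a difference of 1.36 ± 0.10 (SE), or 2.57-fold (adjusted p = 0.000111), with no overlap between the times. Slc7a5, the light chain of a large neutral amino acid transporter, went from 9.43, 9.44 and 9.31 to 10.43, 10.46 and 10.63, 2.16-fold higher (adjusted p = 0.000115). Mthfd2, a mitochondrial folate enzyme of the one-carbon cycle, measured 8.20, 8.00 and 8.04 at 0 h and 9.17, 8.92 and 9.43 at 24 h, 2.13-fold higher (adjusted p = 0.000473). Slc7a1, a transporter of cationic amino acids, rose 1.95-fold (adjusted p = 0.000335). Each of these 4 genes was higher in all arrays at 24 h and kept its sign in the deposited values, where Asns differed by 0.91. The member that fell was Ddit4, an inhibitor of mTORC1 signalling that is also a glucocorticoid target, from 8.77, 9.11 and 9.28 to 8.31, 8.31 and 8.22 (1.71-fold lower, adjusted p = 0.00165).

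The promoters of several of these genes hold the amino acid response element, to which ATF4 and its partners are known to bind. Its core, TGATGNAA, was searched on both strands of the RefSeq windows (GRCm38.p6) from 250 bases before to 50 bases after each gene's start; the letters overlap composite C/EBP and ATF sites. Of the 20 listed genes with a window, 7 (35%) held it, against 4.51% of 27025 genes; 5 of the 7 rose, 0 fell and 2 did not pass. The lists were compiled from known targets, so this share describes the list and does not test it. The 150 bases before the start of Asns (chr6:7693210-7693359, minus strand), Slc7a11 (chr3:50443614-50443763, minus strand) and Nupr1 (chr7:126625471-126625620, minus strand) are shown 5′ to 3′ with the core in capitals, on either strand, as examples from called members, chosen after their values were seen. Slc7a11, the cystine importer, rose by 0.39 ± 0.08 and Nupr1, a stress-induced chromatin protein, by 0.56 ± 0.12 (adjusted p = 0.00426 and 0.0056); with centred arrays both differed by -0.06.
Asns: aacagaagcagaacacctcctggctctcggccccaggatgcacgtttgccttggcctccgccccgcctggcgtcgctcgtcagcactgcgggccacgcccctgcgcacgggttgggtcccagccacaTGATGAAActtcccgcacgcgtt
Slc7a11: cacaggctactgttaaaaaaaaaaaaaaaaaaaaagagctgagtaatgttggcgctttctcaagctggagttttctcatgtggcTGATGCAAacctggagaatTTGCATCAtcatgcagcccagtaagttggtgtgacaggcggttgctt
Nupr1: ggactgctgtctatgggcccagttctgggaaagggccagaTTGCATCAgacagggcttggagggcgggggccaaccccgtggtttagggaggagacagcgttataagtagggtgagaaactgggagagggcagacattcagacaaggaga

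Chaperones and translocation factors of the ER moved the other way. Of 20 genes of the unfolded protein response, 1 rose, 13 fell and 6 did not pass, with a median of -0.46; the deposited median was -0.87, with 0 higher and 19 lower. Sdf2l1, an ER chaperone cofactor, fell from 8.77, 8.64 and 8.41 to 7.84, 7.69 and 7.52, a difference of -0.92 ± 0.12 or 1.89-fold (adjusted p = 0.000603). Sec61b, a subunit of the channel through which new proteins enter the ER, measured 8.47, 8.34 and 8.46 at 0 h and 7.53, 7.65 and 7.55 at 24 h, 1.8-fold lower (adjusted p = 0.000182). Pdia4, a protein disulfide isomerase, was 1.57-fold lower and Manf, a secreted ER stress protein, 1.55-fold lower (adjusted p = 0.00271 and 0.000448). In all 4 genes the 24 h arrays lay below all 0 h arrays. Syvn1, a ubiquitin ligase of ER-associated degradation, was the member that rose, by 0.42 ± 0.11 (adjusted p = 0.0131; 0.14 in the deposited values).

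**Figure D2:**
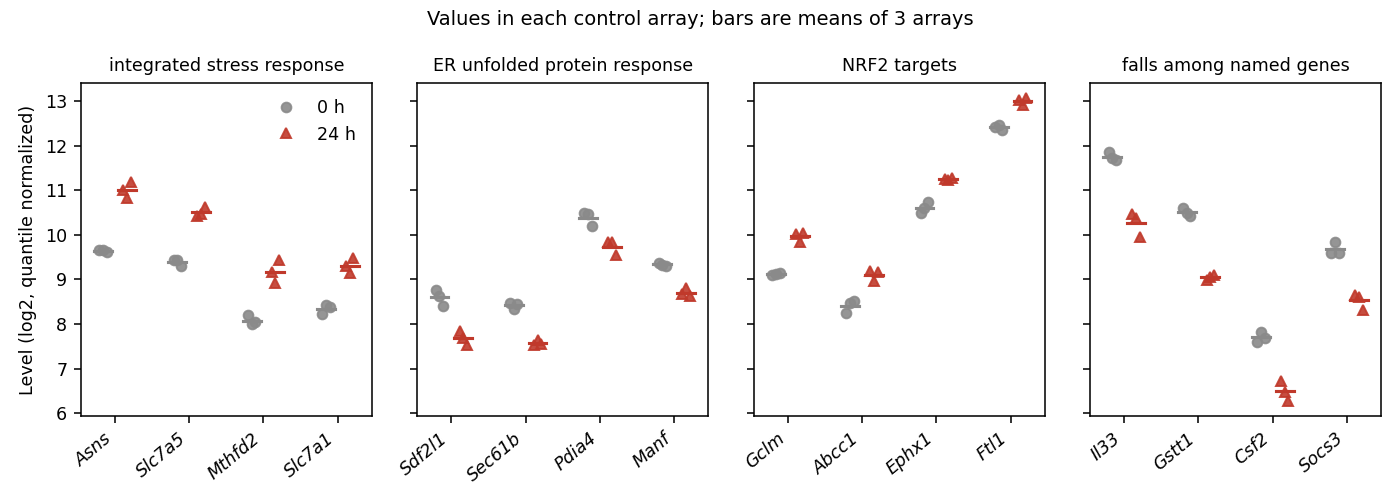
Log2 level after quantile normalization in each control array at 0 h (grey circles) and 24 h (red triangles) for 4 genes each of the integrated stress response, the unfolded protein response and the NRF2 targets and for 4 named genes that fell (Il33, Gstt1, Csf2, Socs3); bars are means of 3 arrays. For every gene drawn the arrays of the 2 times do not overlap, with Asns 1.36 higher and Sdf2l1 0.92 lower at 24 h.

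The ER stress response element, which is a CCAAT box, 9 bases of any kind and CCACG, was searched in the same windows and on both strands. It was held by 8 of 18 listed genes with a window (44.4%) and by 37 of all genes (0.137%). Of these 8, 5 fell, 1 rose and 2 did not pass. The stretches of Hspa5 (chr2:34771940-34772089, plus strand), Pdia6 (chr12:17266439-17266588, plus strand) and Dnajc3 (chr14:118937782-118937931, plus strand) are shown as above with the element in capitals, chosen after their values were seen. Hspa5, the major ER chaperone BiP, measured 12.59, 12.58 and 12.47 at 0 h and 12.19, 12.19 and 11.82 at 24 h (-0.48 ± 0.11, adjusted p = 0.0083). Pdia6, another disulfide isomerase, differed by -0.48 ± 0.10 and Dnajc3, a co-chaperone and inhibitor of the kinase PERK, by -0.53 ± 0.07 (adjusted p = 0.00427 and 0.000645).
Hspa5: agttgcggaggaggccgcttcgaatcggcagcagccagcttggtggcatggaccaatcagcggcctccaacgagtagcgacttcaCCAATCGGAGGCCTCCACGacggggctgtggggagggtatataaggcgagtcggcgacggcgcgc
Pdia6: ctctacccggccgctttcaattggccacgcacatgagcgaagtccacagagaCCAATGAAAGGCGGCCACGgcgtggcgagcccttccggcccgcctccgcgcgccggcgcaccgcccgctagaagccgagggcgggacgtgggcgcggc
Dnajc3: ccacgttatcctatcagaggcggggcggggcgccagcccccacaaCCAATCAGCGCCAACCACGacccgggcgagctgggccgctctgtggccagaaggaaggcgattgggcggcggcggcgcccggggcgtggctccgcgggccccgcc

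Targets of NRF2 were mainly higher after quantile normalization and more often lower than higher in the deposited values. Of 21 NRF2 targets 13 rose, 1 fell and 7 did not pass, with a median of 0.36; in the deposited values the median was -0.07, with 3 higher and 8 lower, and with centred arrays -0.18. Gclm, the modifier subunit of the first enzyme of glutathione synthesis, measured 9.10, 9.13 and 9.14 at 0 h and 10.01, 9.83 and 10.05 at 24 h, 1.8-fold higher (adjusted p = 0.000221). Abcc1, an exporter of glutathione conjugates, rose 1.61-fold and Ephx1, microsomal epoxide hydrolase, 1.57-fold (adjusted p = 0.00103 and 0.000545). Ftl1, ferritin light chain, rose from 12.43, 12.47 and 12.35 to 13.03, 12.91 and 13.07 (1.5-fold, adjusted p = 0.000626), though with centred arrays it differed by -0.02. Blvrb, biliverdin reductase B, was the member that fell, by 0.51 on the log2 scale (adjusted p = 0.000806).

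Of 20 superoxide, peroxide and thioredoxin enzymes, 4 rose, 10 fell and 6 did not pass, with a median of -0.21 (deposited -0.62, 2 higher and 15 lower); 6 fell without replicate 1 at 0 h or without replicate 3 at 24 h. The members that rose were Gpx3, a secreted glutathione peroxidase, Gpx2, Sod1, the cytosolic superoxide dismutase, and Txn2, mitochondrial thioredoxin. Sod1 measured 10.93, 11.03 and 10.84 at 0 h and 11.55 in all 3 arrays at 24 h, a difference of 0.62 ± 0.07 (adjusted p = 0.000505); Gpx2 and Txn2, named with it as the members that rose, differed by 0.65 and 0.61. Gpx3 rose by 0.72 ± 0.17 (adjusted p = 0.00895). The falls were led by Gpx7, an ER-resident peroxidase, from 7.22, 7.19 and 7.17 to 6.29, 6.22 and 6.30, and by Txnip, the inhibitor of thioredoxin, from 11.37, 11.54 and 11.64 to 10.68, 10.72 and 10.40. Both differed by -0.92 (adjusted p = 0.000108 and 0.000483), and Gpx8, also an ER-resident peroxidase, by -0.71 ± 0.07 (adjusted p = 0.000241). The arrays of the 2 times did not overlap for any of these 7 genes.

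Of 19 cholesterol synthesis genes, 11 rose and 4 fell, with a median of 0.32 that turned to -0.16 in the deposited values (1 higher, 7 lower) and -0.27 with centred arrays; 2 fell without replicate 1 or without replicate 2 at 0 h. Fdps, farnesyl diphosphate synthase, measured 10.19, 10.04 and 10.11 at 0 h and 10.87, 10.79 and 10.77 at 24 h, 1.62-fold higher (adjusted p = 0.000316). Sqle, squalene epoxidase, and Sc5d, sterol C5-desaturase, each rose 1.53-fold (adjusted p = 0.00084 and 0.000673). Tm7sf2, a sterol C14-reductase, fell from 9.08, 8.98 and 8.73 to 8.19, 8.36 and 8.24 (1.59-fold lower, adjusted p = 0.00141). Of 17 fatty acid synthesis genes, 2 rose and 11 fell, with a median of -0.34 (deposited -0.79, 0 higher and 15 lower). Thrsp, a lipogenic regulator, fell by 0.84, Fads2, a fatty acid desaturase, by 0.66 and Acly, ATP citrate lyase, by 0.57 on the log2 scale (adjusted p = 0.00665, 0.00844 and 0.00325). Of 19 phospholipid and triglyceride genes, 5 rose and 7 fell, with a median of -0.08 (deposited -0.35, 1 higher and 12 lower). Gpam, the mitochondrial enzyme that starts glycerolipid synthesis, measured 11.60, 11.51 and 11.44 at 0 h and 10.40, 10.22 and 10.23 at 24 h, 2.35-fold lower (adjusted p = 0.000104). Pla2g1b, a secreted phospholipase, was 1.64-fold lower (adjusted p = 0.0052), while Dgat2, which makes triglyceride, was 1.57-fold higher (adjusted p = 0.000736).

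**Figure D3:**
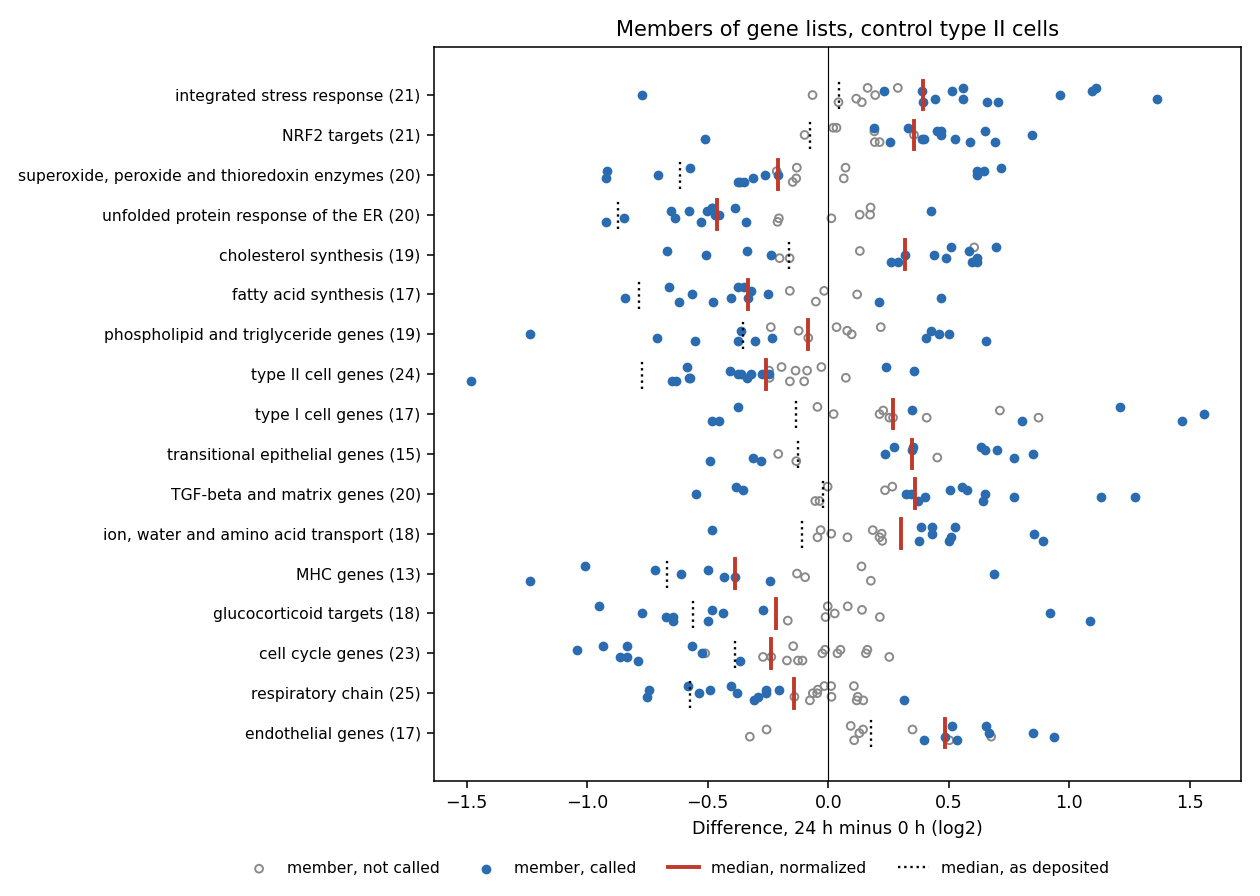
Log2 difference, 24 h minus 0 h, of each measured member (number in brackets) of 17 gene lists, filled where called and open where not, with the list's median after normalization (red) and as deposited (dotted). Integrated stress response and NRF2 members lie mainly above 0 with medians of 0.39 and 0.36, unfolded protein response members mainly below with a median of -0.46, and every deposited median drawn lies to the left of the normalized one.

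Of 24 type II genes, 2 rose, 13 fell and 9 did not pass, with a median of -0.26 (deposited -0.77, 0 higher and 23 lower); the mean over the list was 12.61 to 12.68 in the 3 arrays at 0 h and 12.28 to 12.39 at 24 h. Quantile normalization gives equal ranks equal values in every array, so differences among genes at the top of the range are held small. Sftpc differed by -0.10 ± 0.06, Sftpa1 by -0.09 ± 0.07 and Sftpb by -0.03 ± 0.07, and none passed the test (adjusted p = 0.221, 0.332 and 0.759), although in the deposited values the 3 genes differed by -0.75, -0.75 and -0.54. Slc34a2, the phosphate transporter of type II cells, and Scd1, the stearoyl-CoA desaturase, fell by 0.24 and 0.32 on the log2 scale (adjusted p = 0.0158 and 0.00648), the call of Slc34a2 being lost without replicate 1 at 0 h (adjusted p = 0.0539); Lyz2, lysozyme, and Cxcl15, lungkine, differed by -0.14 and -0.19 and did not pass. Il33, an alarmin cytokine, measured 11.86, 11.72 and 11.69 at 0 h and 10.48, 10.38 and 9.96 at 24 h, 2.79-fold lower (adjusted p = 0.000195). Dram1, a lysosomal membrane protein, Napsa, a protease that processes surfactant protein B, and Muc1, a membrane mucin, were 1.57-, 1.55- and 1.5-fold lower (adjusted p = 0.000396, 0.000625 and 0.000556).

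Of 17 type I cell genes, 5 rose, 3 fell and 9 did not pass, a share of 47.1% called against 48.6% of all genes. The median was 0.27, against -0.13 in the deposited values (4 higher, 5 lower) and -0.24 with centred arrays. Pdpn, podoplanin, a membrane glycoprotein of type I cells, measured 7.55, 7.27 and 8.51 at 0 h and 8.99, 9.82 and 9.20 at 24 h, 2.95-fold higher (adjusted p = 0.00523). Igfbp2, an IGF-binding protein, went from 7.42, 6.71 and 7.98 to 8.63, 9.15 and 8.74, 2.76-fold higher (adjusted p = 0.00415). Hopx, a homeodomain cofactor, went from 7.91, 7.84 and 8.69 to 8.87, 9.74 and 9.46, 2.31-fold higher (adjusted p = 0.00737). The arrays of one time differed among themselves in these genes, with replicate 3 the highest at 0 h and replicate 2 the highest at 24 h. The list's mean was 9.79, 9.65 and 10.18 at 0 h and 10.12, 10.51 and 10.22 at 24 h, so that the times overlapped, and without replicate 3 at 0 h 8 members rose and 2 fell. Ager, the receptor RAGE that is abundant in type I cells, and the tight junction gene Cldn18 fell by 0.45 and 0.48 (adjusted p = 0.00696 and 0.000756); they were named after their values were seen, as the best-known members that fell. Timp3, an inhibitor of metalloproteinases, rose 1.74-fold (adjusted p = 0.00023). Fewer cells of a type and less RNA per cell cannot be told apart in such bulk samples.

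Of 15 genes of transitional epithelium, the state between type II and type I cells, 9 rose and 3 fell, with a median of 0.35 that was -0.13 in the deposited values (3 higher, 6 lower) and -0.23 with centred arrays. Krt7, a simple-epithelium keratin, measured 10.26, 10.52 and 10.46 at 0 h and 11.05, 11.26 and 11.24 at 24 h, 1.7-fold higher (adjusted p = 0.000594). Sprr1a, a cornified envelope precursor, Lgals3, galectin 3, and Itgb6, the integrin β6 subunit, rose 1.8-, 1.62- and 1.57-fold (adjusted p = 0.00245, 0.00161 and 0.00174). Of 20 TGF-β and matrix genes, 12 rose and 3 fell, with a median of 0.36 that was -0.02 in the deposited values (5 higher, 3 lower) and -0.13 with centred arrays. Itgav, the integrin αv subunit that pairs with β6 to activate latent TGF-β, measured 9.74, 9.63 and 9.70 at 0 h and 10.76, 10.70 and 11.01 at 24 h, 2.19-fold higher (adjusted p = 0.000162). Ccn2, a matricellular target of TGF-β and YAP, rose from 7.84, 8.21 and 8.71 to 9.16, 9.73 and 9.69 (2.41-fold, adjusted p = 0.00281), and Smad7, the inhibitory SMAD, 1.7-fold (adjusted p = 0.000389). Among 18 ion, water and amino acid transport genes 9 rose and 1 fell (median 0.30, but -0.11 as deposited, with 2 higher and 3 lower, and -0.22 with centred arrays). Scnn1a, the α subunit of the epithelial sodium channel, rose from 10.36, 10.52 and 10.57 to 11.09, 11.44 and 11.59 (1.85-fold, adjusted p = 0.00108). Slc38a2, a sodium-coupled importer of neutral amino acids, rose by 0.53 ± 0.07 or 1.44-fold (adjusted p = 0.000675), with no overlap between the times, though with centred arrays it differed by -0.0084. Scnn1g, the γ subunit of the epithelial sodium channel, rose 1.81-fold (adjusted p = 0.0201). Its call was lost when replicate 1 or 2 at 0 h or replicate 2 or 3 at 24 h was left out (adjusted p = 0.0537 to 0.0671).

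Of 19 transcription factors of the lung epithelium, 5 rose and 6 fell, with a median of 0.02; in the deposited values 0 were higher and 12 lower, with a median of -0.33. Elf5, an ETS factor of distal lung, fell from 9.30, 9.09 and 9.32 to 8.56, 8.35 and 8.23 (1.81-fold, adjusted p = 0.000543), and Id2, an inhibitor of basic helix-loop-helix factors, 1.8-fold (adjusted p = 0.0069). Gata6, a factor of alveolar epithelial maturation, rose 1.44-fold (adjusted p = 0.00373). In the C/EBP family 1 of 5 measured genes rose, 1 fell and 3 did not pass (0 higher and 2 lower as deposited). Cebpa itself measured 10.71, 10.76 and 10.77 at 0 h and 10.69, 10.35 and 10.45 at 24 h, a difference of -0.25 ± 0.09 that did not pass (adjusted p = 0.0568) but passed without replicate 1 at 24 h (-0.35, adjusted p = 0.0128). Cebpd fell from 8.54, 8.70 and 8.79 to 7.97, 8.24 and 7.88 (1.56-fold, adjusted p = 0.00237), and Cebpb rose from 8.68, 8.67 and 8.83 to 9.18, 9.14 and 9.30 (1.39-fold, adjusted p = 0.00202). Cebpe and Cebpg differed by -0.14 and 0.29 and did not pass, Cebpg passing without replicate 2 at 24 h (adjusted p = 0.024) and changing sign to -0.08 in the deposited values.

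Of 27 cytokine and chemokine genes, 6 rose and 7 fell, a share of 48.1% against the 48.6% of all genes (5 higher and 9 lower as deposited). Ccl20, a chemokine for CCR6-bearing lymphocytes and dendritic cells, measured 6.47, 6.39 and 6.75 at 0 h and 8.04, 7.55 and 8.50 at 24 h, 2.82-fold higher (adjusted p = 0.00106). Cxcl5, a neutrophil chemoattractant, measured 7.55, 7.30 and 7.18 at 0 h and 9.37, 7.47 and 9.01 at 24 h. Its times overlapped through replicate 2 at 24 h; the difference of 1.27 ± 0.42 passed (adjusted p = 0.0366) but kept its call only without replicate 2 at 24 h when arrays were left out singly. Csf2, the gene for GM-CSF, which is needed for surfactant clearance, fell from 7.61, 7.82 and 7.69 to 6.71, 6.49 and 6.28 (2.32-fold, adjusted p = 0.000236). Among 22 NF-κB feedback and acute phase genes 7 rose and 5 fell, with a median of -0.02, against 4 higher and 11 lower and a median of -0.33 as deposited. Saa3, an acute phase apolipoprotein, went from 5.95, 6.02 and 6.13 to 7.23, 6.89 and 7.47 (2.24-fold higher, adjusted p = 0.00048), and Socs3, the feedback inhibitor of STAT3 signalling, from 9.60, 9.83 and 9.59 to 8.65, 8.61 and 8.32 (2.21-fold lower, adjusted p = 0.000243).

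Of 13 MHC genes, 1 rose and 8 fell, with a median of -0.39 (deposited -0.67, 1 higher and 11 lower). H2-DMa, which helps load peptide on class II molecules, measured 9.08, 8.99 and 8.90 at 0 h and 7.68, 7.89 and 7.69 at 24 h, 2.36-fold lower (adjusted p = 0.000108). The class II chain genes H2-Ab1 and H2-Aa were 2.01- and 1.65-fold lower (adjusted p = 0.00052 and 0.00179); H2-Ab1 went from 12.73, 12.83 and 12.48 to 11.55, 11.58 and 11.88. The member that rose was Nlrc5, the activator of class I genes, from 8.89, 8.98 and 8.84 to 9.52, 9.62 and 9.63 (1.61-fold, adjusted p = 0.000327). Of 18 interferon response genes 3 rose and 7 fell (2 higher and 7 lower as deposited).

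Of 18 p53 targets, 5 rose and 3 fell, a share of 44.4% against 48.6%, with a median of 0.09; in the deposited values 3 were higher and 10 lower, with a median of -0.26. Phlda3, an inhibitor of AKT, and Ccng1, cyclin G1, led the rises: Phlda3 went from 7.43, 7.29 and 7.56 to 8.87, 8.65 and 8.61 (2.44-fold, adjusted p = 0.000127) and Ccng1 from 10.24, 10.20 and 10.14 to 11.46, 11.30 and 11.42 (2.3-fold, adjusted p = 8.17e-05). Of 23 cell cycle genes 0 rose and 9 fell in limma, with a median of -0.24 (deposited -0.39, 2 higher and 10 lower). Bub1, a kinase of the spindle checkpoint, went from 8.42, 8.25 and 8.28 to 7.62, 7.25 and 6.96 (2.06-fold lower, adjusted p = 0.00111). Glucocorticoid targets fell in 9 of 18 cases and rose in 2, with a median of -0.22 (deposited -0.56, 1 higher and 14 lower). The largest changes ran both ways: Fkbp5, a chaperone of the glucocorticoid receptor, went from 7.16, 7.40 and 7.37 to 7.78, 8.81 and 8.60 (2.12-fold higher, adjusted p = 0.00642) and Sult1a1, a sulfotransferase, was 1.93-fold lower (adjusted p = 0.00648). Zbtb16, a zinc-finger repressor, rose 1.89-fold (adjusted p = 0.0193), and its call was lost without replicate 1 or replicate 3 at 0 h (adjusted p = 0.0502 and 0.0579). Of 18 circadian clock genes 5 rose and 4 fell, a share of 50% called against 48.6% of all genes. Their median was -0.06, against 1 higher and 10 lower and a median of -0.37 as deposited. Cry1, a repressor of the clock, rose 1.61-fold (adjusted p = 0.0103). Respiratory chain genes fell in 12 of 25 cases and rose in 1, with a median of -0.14 (deposited -0.57, 0 higher and 22 lower).

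Markers of other cell types were counted beside these results. Endothelial genes rose in 8 of 17 cases and fell in 0 in limma, with a median of 0.48 (deposited 0.18, 3 higher and 1 lower). Their mean level was 8.19, 7.99 and 8.22 at 0 h and 8.18, 8.91 and 8.45 at 24 h, highest in replicate 2 at 24 h. Without that array 4 rose and 2 fell; 5 rose without replicate 1 at 0 h, 3 without replicate 2 at 0 h and 5 without replicate 3 at 24 h. Vwf, von Willebrand factor, and Eng, endoglin, were 1.91- and 1.8-fold higher (adjusted p = 0.00325 and 0.00612). Fibroblast and smooth muscle genes rose in 5 of 17 cases and fell in 2, macrophage genes in 2 and 2 of 17, neutrophil genes 1 and 2 of 12, lymphocyte genes 1 and 1 of 15, ciliated cell genes 4 and 0 of 12 and airway secretory genes 2 and 2 of 13. As deposited the counts of higher and lower members were 5 and 2 for fibroblast, 3 and 4 for macrophage, 4 and 1 for neutrophil, 3 and 1 for lymphocyte, 2 and 2 for ciliated and 1 and 6 for airway secretory genes. The mean level of each of these lists overlapped between the times. That of the fibroblast genes was 7.04 to 7.24 at 0 h and 7.13 to 7.56 at 24 h, that of the macrophage genes 7.12 to 7.50 and 7.09 to 7.49. The airway secretory genes had the highest, 9.92 to 10.56 at 0 h and 10.05 to 10.83 at 24 h. Array values have no true zero, so no marker could be called absent. The part of a changed mixture of cells in the type I, transitional and matrix results was not tested.

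The largest changes were picked by size, among called genes whose arrays did not overlap and whose sign was the same in the deposited values. The mean at the higher time also had to reach the median level of all genes, 6.99, so a gene could pass through that time alone. RIKEN, predicted, olfactory receptor and small RNA genes were passed over. Lsmem1, a small membrane protein, measured 9.15, 8.98 and 9.06 at 0 h and 11.54, 11.28 and 10.97 at 24 h, 4.6-fold higher (adjusted p = 8.17e-05). Mmp25, a membrane-anchored metalloproteinase, went from 7.13, 6.92 and 6.94 to 9.07, 8.80 and 8.88 (3.79-fold), and Flvcr1, a heme exporter, from 9.88, 9.62 and 9.81 to 11.33, 11.40 and 11.47 (3.09-fold; adjusted p = 5.26e-05 and 6.34e-05). Bitter taste receptor genes Tas2r135 and Tas2r126, were 4.52- and 3.49-fold higher, from levels below the median of all genes at 0 h. The others were Vash2, a tubulin carboxypeptidase, 3.59-fold, Fbp2, muscle fructose bisphosphatase, 3.53-fold, Adam30, 3.42-fold, Cped1, 3.32-fold, and Lyve1, the hyaluronan receptor of lymphatic vessels, 3.21-fold, with 24 h values of 8.89, 10.51 and 10.11. These are the 10 largest rises under these conditions.

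The largest falls under the same conditions were those of Usp17ld and Zfp931. Usp17ld, a deubiquitinase of a multigene family whose copies the array may not separate, went from 9.91, 10.24 and 9.15 to 6.91, 7.31 and 6.46, 7.35-fold lower (adjusted p = 0.000273). Zfp931, a zinc-finger gene, went from 7.30, 7.16 and 7.10 to 4.50, 4.96 and 4.64, 5.59-fold lower (adjusted p = 4.86e-05). Nnat, the imprinted gene for neuronatin, a small ER membrane protein, went from 9.33, 8.82 and 8.99 to 6.92, 7.41 and 7.02, 3.81-fold lower (adjusted p = 0.00016). Hdc, histidine decarboxylase, the enzyme that makes histamine, went from 11.74, 11.71 and 11.24 to 10.38, 10.30 and 9.47, 2.86-fold lower (adjusted p = 0.0017). The others among the 10 largest falls were Zkscan7, Fam178b, Fam72a, Mrpl42, a mitochondrial ribosomal protein, Prc1, which bundles spindle microtubules, and Il33, between 2.79- and 3.27-fold lower. Gstt1, a glutathione transferase and the largest fall among the xenobiotic enzymes, went from 10.60, 10.50 and 10.43 to 8.99, 9.07 and 9.10 (2.75-fold, adjusted p = 6.34e-05).

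The control arrays at 2 h were normalized with the other 6 as a set of 9, to set the levels at 2 h beside those at 0 and 24 h. The lowest deposited values were 1.73 to 1.85 at 0 h, 2.58 to 2.61 at 2 h and 2.61 to 2.63 at 24 h. The 0 h arrays thus differed in range from both later times. A change placed between 0 and 2 h cannot be told apart from that difference. The deposited interquartile range over genes was also narrower at 2 h (2.13 to 2.38) than at 24 h (2.44 to 2.52). A change placed between 2 and 24 h cannot be told apart from this second difference in range. Of all genes 48.9% were called between 0 and 2 h (22.6% higher, 26.3% lower) and 19.4% between 2 and 24 h (10.5% higher, 8.95% lower), and the 2 contrasts share the 2 h arrays. Asns differed by 0.41 from 0 to 2 h and by 0.95 from 2 to 24 h (adjusted p = 0.0148 and 0.000524). Nnat and Il33 differed by 0.01 and 0.01 over the first interval and by -1.85 and -1.51 over the second (adjusted p = 9.11e-05 and 0.000332). Lsmem1 fell by 0.75 at first and then rose by 2.95. Zfp931, H2-DMa and Csf2 had their change in the first interval, by -2.67, -1.12 and -1.18, and differed by 0.24, -0.06 and 0.04 in the second, which did not pass. Cholesterol synthesis genes had a median of -0.29 from 0 to 2 h, with 0 higher and 8 lower, and of 0.51 from 2 to 24 h, with 13 higher and 1 lower. Unfolded protein response genes had medians of 0.00 and -0.37, with 3 higher and 5 lower and then 1 higher and 11 lower.

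**Figure D4:**
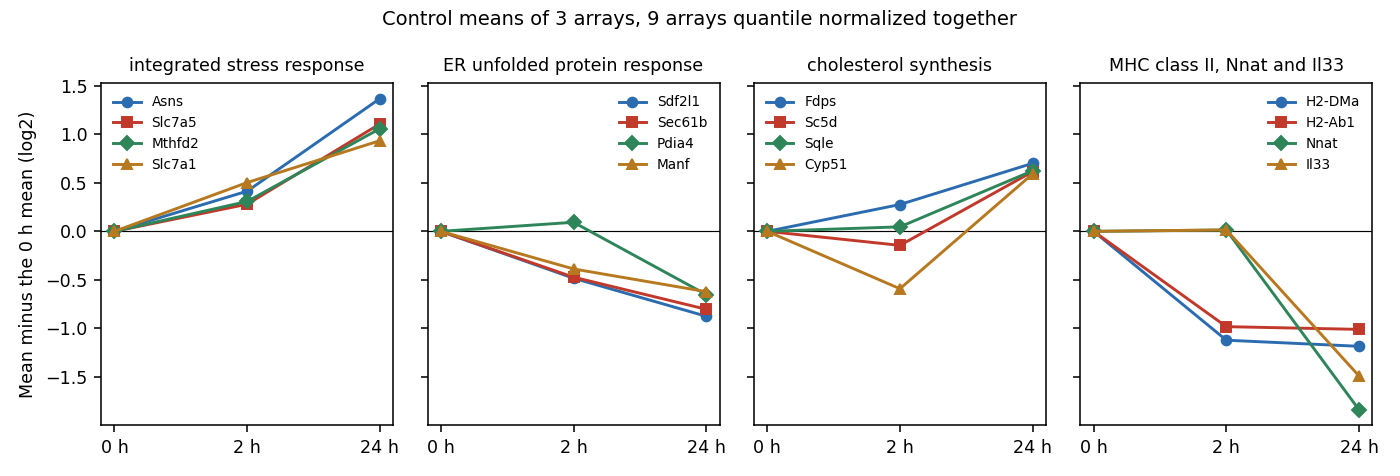
Mean log2 level of 3 control arrays at 0, 2 and 24 h minus the 0 h mean, with the 9 control arrays quantile normalized together, for 4 genes in each of 4 panels; time is drawn as evenly spaced categories. Cyp51 lies 0.59 below its 0 h mean at 2 h and above it at 24 h, whereas H2-DMa reaches its lower level by 2 h and Nnat and Il33 after 2 h.

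Whether the change differed between the genotypes was asked with the interaction of genotype and time in 12 arrays normalized together. Since controls lacked either the rtTA or the Cre gene, the loss of Cebpa cannot be told apart from the transgenes in this comparison. The deposited interquartile range over genes was 2.89 to 3.06 in the Cebpa-deleted arrays at 0 h and 1.82 to 2.13 at 24 h. In controls it was 2.97 to 3.04 and 2.44 to 2.52. The range thus narrowed more in Cebpa-deleted arrays, which cannot be told apart from the interaction. Of all genes 3072 (15.4%) passed, 787 (3.95%) with a higher and 2285 (11.5%) with a lower difference in Cebpa-deleted cells. In the deposited values 4441 passed. Leaving out 1 of the 12 arrays gave 1701 to 5536, the highest without Cebpa-deleted replicate 4 at 24 h. Cebpa, the deleted gene, measured 10.66, 10.71 and 10.72 in controls at 0 h and 10.32, 10.36 and 10.16 in the Cebpa-deleted arrays at 0 h. At 24 h it measured 10.63, 10.29 and 10.39 in controls and 9.01, 8.60 and 8.61 in the Cebpa-deleted arrays of replicates 1, 2 and 4. The Cebpa-deleted arrays were the lower at both times, by less at 0 h (interaction -1.28 ± 0.17, adjusted p = 0.00293). Whether the array's feature lies in the deleted part is not known here. Cholesterol genes had a median change of 0.31 in controls against -0.88 with Cebpa deleted, and 15 of 19 had a lower difference in Cebpa-deleted cells and 0 a higher one. Cyp51, a sterol demethylase, and Lss, lanosterol synthase, chosen after their values were seen, rose in controls from 9.70, 9.64 and 9.39 to 10.08, 10.29 and 10.15 and from 9.70, 9.59 and 9.50 to 9.88, 10.29 and 10.15. Their interactions were -1.72 and -1.66 (adjusted p = 0.00547 and 0.00717); with centred arrays the control difference of Lss was -0.02. Type II genes had a median change of -0.26 in controls against -0.75 with Cebpa deleted, with 18 of 24 called lower. Lymphocyte genes had medians of -0.05 and 0.64, with 2 of 15 called higher and 0 lower. Fibroblast and smooth muscle genes had medians of 0.19 and 0.44, with 6 of 17 higher and 0 lower. Ciliated cell genes were higher in 3 and lower in 0 cases, airway secretory genes in 1 and 1, macrophage genes in 0 and 1. Endothelial and neutrophil genes had 0 either way. The part of a changed mixture of cells in the interaction was not tested.

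Among the stress lists the interaction median was -0.29 for the integrated stress response, with 4 of 21 called lower, among them Asns (-0.96 ± 0.20, adjusted p = 0.0107). It was -0.19 for NRF2 targets, with 4 of 21 called lower, and -0.04 for the unfolded protein response, with 1 higher and 1 lower. Sdf2l1 had an interaction of 0.03 and Gclm one of -0.09, neither of which passed (adjusted p = 0.932 and 0.612). The largest negative interactions by the stated rule began with Rtkn2, a type I cell gene (-2.87, adjusted p = 0.0155), which measured 7.18, 6.72 and 8.44 at 0 h and 7.75, 8.87 and 7.85 at 24 h in controls and did not pass there, but passed without replicate 3 at 0 h (1.18, adjusted p = 0.0222). Igfbp2 and Hopx, which rose in controls, had interactions of -2.38 and -1.34 (adjusted p = 0.0107 and 0.0419), and the largest positive one by the same rule was that of Usp17ld (2.11, adjusted p = 0.00595).

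**Figure D5:**
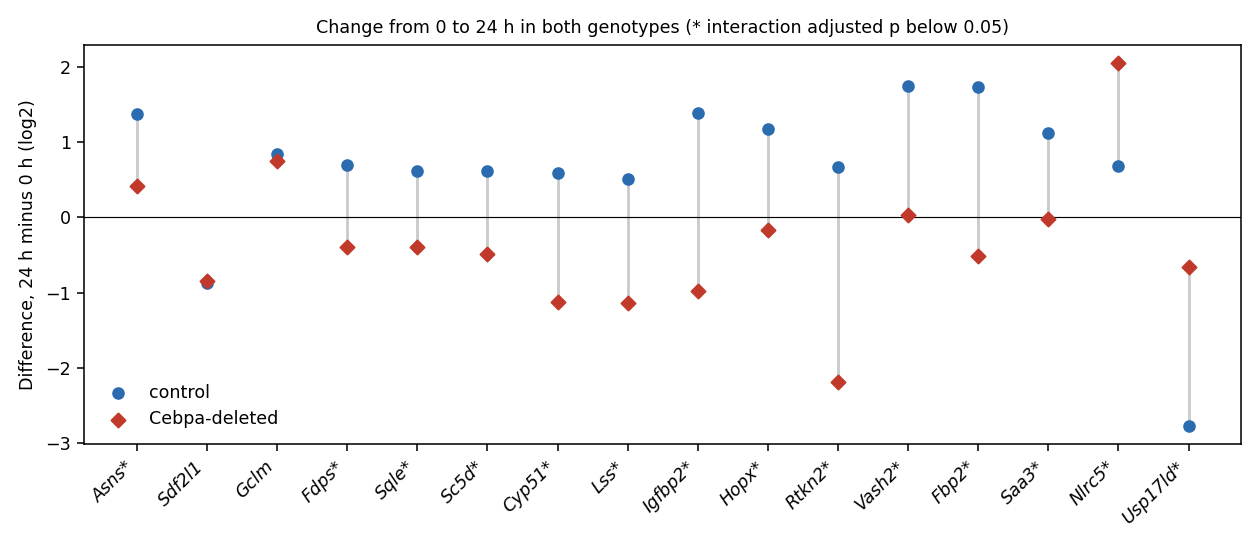
Log2 difference, 24 h minus 0 h, in control (blue circles) and Cebpa-deleted cells (red diamonds), each from 3 arrays per time with 12 arrays normalized together, for 16 named genes; asterisks mark genes whose interaction passed. The 5 cholesterol genes from Fdps to Lss lie above 0 in controls and below 0 in Cebpa-deleted cells, while Sdf2l1 and Gclm lie close together.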

How the data were processed

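The deposited values of the 18 Affymetrix arrays were on a log2 scale. The submitters' processing notes name RMA, a summary of probes to features, as what the authors used; its version and which arrays were normalized together are not given in the sources used here. Of 35557 features, 21789 carried 1 gene symbol, 1621 several and 12147 none; 1 feature per symbol was kept, that with the highest mean over 18 arrays, giving 19938 genes. The 6 control arrays at 0 and 24 h were quantile normalized together, and the difference was tested with limma 3.58.1 (R 4.3.3), adjusted by Benjamini-Hochberg over all genes and called below 0.05. The 9 control arrays, and the 12 arrays of the genotype by time interaction, were normalized and fitted as sets of their own. Only 3 arrays per group limit the precision. In simulated data with this design, 50 of 19938 genes were changed by each of 1.25-, 1.5-, 2- and 3-fold. There 10% of 1.25-fold, 62% of 1.5-fold and 84% of 2-fold changes were recovered. Far fewer genes changed there than were called here (48.6%), which makes the adjusted threshold stricter. The simulated noise was drawn independently for each gene, with no difference in range between the times. These shares therefore do not give the recovery in the comparison itself.

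The comparison and the 43 gene lists (774 of 847 members measured) were chosen with earlier results of these data known. Named genes were the largest changes overall (up to 15 each way, outside RIKEN, predicted and small RNA genes), up to 4 called members per list, the 8 type II genes of highest level, the C/EBP family and the 5 largest interactions each way. Slc7a11, Nupr1, Pdia6, Dnajc3, Syvn1, Blvrb, Gpx2, Sod1, Txn2, Cyp51, Lss, Ager and Cldn18 were chosen after their values were seen. Alternatives covered normalization, features, low values, variance model, arrays in the fit and the replicate block. Same-numbered replicates did not deviate together (correlations of -0.000, -0.023 and 0.047), so the numbers were not used as pairs. Promoter sequences are RefSeq's.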

Additional observations from a re-analysis of the deposited data

Results flagged for a closer look

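The genes below are those named in the text whose change from 0 to 24 h differed between the genotypes by the interaction test in limma over 12 arrays. Each value is the log2 change in Cebpa-deleted cells minus that in controls. Of all genes 15.4% passed this test, 3.95% with a higher and 11.5% with a lower value. The deposited range narrowed more in the Cebpa-deleted arrays, which cannot be told apart from the interaction. Negative values were found both for genes that rose in controls, such as Fbp2, and for genes that fell there, such as Gpam. Many genes were named for a large change in the same control arrays, which favours interactions of the opposite sign, and some for the interaction itself. The list therefore describes the named genes and does not test them. Groups of 3 arrays were not tested for a sample far from the others. The lowest values were those of Rtkn2 -2.87 (adjusted p = 0.0155), Cped1 -2.44 (adjusted p = 0.016), Igfbp2 -2.38 (adjusted p = 0.0107), Fbp2 -2.25 (adjusted p = 0.0113), Scnn1g -1.80 (adjusted p = 0.0227) and Vash2 -1.72 (adjusted p = 0.00293). Next came Cyp51 -1.72 (adjusted p = 0.00547), Lss -1.66 (adjusted p = 0.00717), Bub1 -1.38 (adjusted p = 0.00577), Mrpl42 -1.36 (adjusted p = 0.00925), Hopx -1.34 (adjusted p = 0.0419) and Tas2r135 -1.28 (adjusted p = 0.0033). These were followed by Cebpa -1.28 (adjusted p = 0.00293), Tm7sf2 -1.21 (adjusted p = 0.00633), Saa3 -1.14 (adjusted p = 0.00596), Sc5d -1.11 (adjusted p = 0.00358), Fdps -1.10 (adjusted p = 0.00309) and Adam30 -1.07 (adjusted p = 0.00602). Smaller negative values were found for Tas2r126 -1.05 (adjusted p = 0.0126), Sqle -1.01 (adjusted p = 0.00309), Asns -0.96 (adjusted p = 0.0107), Gpam -0.89 (adjusted p = 0.00368), Cldn18 -0.88 (adjusted p = 0.00746) and Il33 -0.88 (adjusted p = 0.022). Below these in size were Flvcr1 -0.88 (adjusted p = 0.00521), Napsa -0.85 (adjusted p = 0.0185), Elf5 -0.72 (adjusted p = 0.0223), Acly -0.61 (adjusted p = 0.0237), Itgb6 -0.61 (adjusted p = 0.0174) and Lyz2 -0.61 (adjusted p = 0.00595). Still smaller were those of Dram1 -0.57 (adjusted p = 0.0129), Dgat2 -0.55 (adjusted p = 0.0271), Timp3 -0.49 (adjusted p = 0.0406), Mmp25 -0.49 (adjusted p = 0.0413), Sftpa1 -0.43 (adjusted p = 0.0183) and Gpx8 -0.43 (adjusted p = 0.0319). The negative value nearest to 0 was that of Cxcl15 -0.38 (adjusted p = 0.0428). Positive values were found for Sec61b 0.72 (adjusted p = 0.0297), Nlrc5 1.38 (adjusted p = 0.00368) and Usp17ld 2.11 (adjusted p = 0.00595).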

How the results depend on the processing

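Of 104 named genes that were called, 100 kept their call in all 6 fits that left out 1 array, and 75 did so in all settings tried. Most losses came with the scaling of the arrays. With the sign kept, 19 of the 104 lost their call as deposited and 23 with centred arrays, against at most 4 in any other setting. None reversed except with arrays centred on their medians, where Nupr1 differed by -0.060, Slc7a11 by -0.064, Ftl1 by -0.025, Lss by -0.015 and Slc38a2 by -0.0084; Cebpg, not called, was -0.083 as deposited and -0.19 centred, and Sftpb, not called, was 0.035 with cyclic loess and -0.069 to 0.0077 with 1 array left out, positive without replicate 2 at 0 h. Of 43 list medians 19 changed sign as deposited and 19 with centred arrays; 13 and 12 of these were under 0.1 in size after quantile normalization. The others, as deposited and then centred, were type I (-0.13 and -0.24), transitional (-0.13 and -0.23), NRF2 (-0.075 and -0.18), cholesterol (-0.16 and -0.27), transport (-0.11 and -0.22) and TGF-β (-0.020 and -0.13), with the integrated stress response at -0.064 when centred; the heat shock median was -0.21 to 0.14 with 1 array left out, positive without replicate 3 at 24 h, and the C/EBP median 0.018 over the upper 60% of genes. Leaving out 1 array changed the sign of 1 to 12 of the 43 list medians, the most without replicate 1 at 0 h. Apart from heat shock, all of these were under 0.1 in size after quantile normalization. The cause of the sign changes was not tested. The count of called genes was 12892 as deposited and 12993 centred, with 8901 lower when centred. Asking for 1.5-fold left 2690, of which 1108 were higher and 1582 lower. The upper 60% of genes held 2699 higher, since fewer genes were tested. Leaving out 1 array gave 8172 to 8626 in all, 3576 to 3797 higher and 4497 to 4941 lower. The interaction count ran from 1701 to 5536 with 1 array left out, was 4441 as deposited and was 1813 with all 18 arrays in the fit. With the replicate number as a block 9338 genes were called in the main comparison and 5133 in the interaction, where the numbers shared by the groups do not pair the arrays. Lists were not recomputed with each feature tested alone.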

Other observations

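Other gene groups were measured in the same arrays; each count is followed by that in the deposited values. Of 18 heat shock protein genes 3 rose and 2 fell (0 higher and 10 lower as deposited), a share of 27.8% called against 48.6% of all genes. Immediate early genes rose in 5 and fell in 4 of 22 cases (0 higher and 12 lower as deposited), and hypoxia and glycolysis genes likewise in 5 and 4 of 22 (1 higher and 12 lower as deposited); both medians were 0.03 and turned to -0.40 and -0.34 as deposited. Fatty acid oxidation genes rose in 3 and fell in 7 of 18 cases, a median of -0.18 (0 higher and 14 lower as deposited), with 4 falling without replicate 2 or 3 at 0 h or replicate 1 at 24 h. Of 25 proteasome subunits 4 rose and 7 fell (0 higher and 24 lower as deposited). Of 14 ribosomal protein genes 0 rose and 4 fell in limma (0 higher and 14 lower as deposited), a share of 28.6%. Of 24 ribosome production genes 7 rose and 2 fell, with a median of 0.10, against 0 higher and 12 lower and a median of -0.27 as deposited. Metallothionein and metal genes rose in 4 and fell in 2 of 15 cases (4 higher and 6 lower as deposited), complement genes in 2 and 2 of 15 (2 higher and 6 lower as deposited) and xenobiotic enzymes in 5 and 6 of 21 (3 higher and 9 lower as deposited). Growth factor feedback genes rose in 4 and fell in 7 of 19 cases (4 higher and 10 lower as deposited), and BCL2 family and death genes in 4 and 5 of 18 (2 higher and 8 lower as deposited). The 3 red cell genes measured had a mean level of 7.15 to 7.32 at 0 h and 6.79 to 7.05 at 24 h, with 1 higher and 1 lower, as in the deposited values. The antioxidant response element core, TGACNNNGC, was held by 5 of 16 NRF2 target promoters (31.2%) and 14% of all, and the sterol element TCACNCCAC by 1 of 15 cholesterol promoters (6.67%) and 1.44% of all.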
